A study of Rattus norvegicus with 7 samples.

Results

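The cytosolic ribosomal protein genes are described here in the cerebellum of weanling rats whose dams had or had not been fed a diet short of methyl donors. Members were taken by symbol: Rpl or Rps followed by a number and, for some, a closing letter, together with Rplp0, Rplp1, Rplp2 and Rpsa. Kinases of the Rps6k family and symbols of ribosomal-like copies were left out. For the rat assembly GRCr8, the RefSeq gene table holds 77 such genes, and 73 of them (44 of the large and 29 of the small subunit) were matched to probes, out of 15443 named genes on the array. No probe matched the other 4. The 73 genes were read by 130 probes, all of them well above background on all 7 arrays, so every measured member passed the filter on low signal.

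All samples were cerebellum of female Wistar pups aged 21 days, with RNA taken from 20 mg of tissue. In the control group (CTRL, n = 4 pups) the dams ate a standard diet. In the group with methyl donor deficiency (MDD, n = 3 pups) the dams' diet was deficient in folate and in vitamin B12, and its choline was lowered. Each diet ran from 1 month before pregnancy until weaning. The labels name biological replicates without saying which pups shared a dam, and the p-values therefore measure the spread between pups, not litters.

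A cytosolic ribosome consists of a small subunit, which reads the messenger RNA, and a large subunit, which joins amino acids and releases the growing chain through an exit tunnel. Its proteins are needed in matched amounts, and most of their messenger RNAs begin with a run of pyrimidines, the 5′ terminal oligopyrimidine or TOP motif, through which mTORC1 and the RNA-binding protein Larp1 set how much of them is translated. Ribosomal protein messenger RNAs are among the most abundant in most cells, and mutations in several of them cause Diamond-Blackfan anaemia in humans.

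Each value below is a log2 intensity relative to the 75th percentile of its own array, and a difference is MDD minus CTRL on that log2 scale. Each probe has its own brightness, so where signal strength is used below it is the brightness of probes, not the abundance of transcripts. The spots of each array were well above background in 74.1% to 79.6% of cases and 0 were saturated, and the number of arrays limits the precision. The liver transcripts Alb, Apoa1 and Serpina1 stood apart on 2 control arrays: Alb read 1.79 on CTRL 2 and 1.07 on CTRL 4, against -7.04 to -5.77 on the other arrays. Cyp2e1, another liver gene, was well above background on 0 arrays. All 11 granule neuron markers and all 10 genes of the Purkinje cell list were well above background on every array.

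Ribosomal protein transcripts stood higher in MDD than in CTRL on this scale, from a difference of 0.17 at Rps3a to 1.70 at Rplp1, and the direction was lost when arrays were scaled by their spike-in controls (median -0.01). Of the 73 members, 60 were called higher in MDD by limma (Benjamini-Hochberg adjusted p under 0.05 over 19988 features), 0 were called lower and 13 did not pass. Over all features tested, 12.6% were called higher and 7.96% lower. The MDD mean lay above the CTRL mean for all 73 members, against 47.3% of all features. For 66 of the 73, every MDD array lay above every CTRL array, which 19.9% of all features did, and for 0 every MDD array lay below every CTRL array (16.7% of all features). The median difference of the members was 0.73, with quartiles of 0.54 and 0.95 and a range of 0.17 to 1.70, while the median of all features was -0.03. Rises of 2-fold or more were seen in 15 members. As shares of the summed intensity of an array, the 130 probes took 5.17%, 5.37%, 4.85% and 4.98% in CTRL and 7.23%, 6.35% and 6.82% in MDD, with no overlap between groups. In tissue of mixed cell types, fewer cells of a type and less RNA per cell cannot be told apart.

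The size of the shift depended on the scaling between arrays. Quantile normalization left 19 members called higher (10.5% of all features) with a median of 0.25, and 15 members then had a lower MDD mean. In the authors' deposited table, 9 members had a lower MDD mean, the median was 0.30 and 28 members were called higher (12% of all features). Leaving out CTRL 1, 2, 3 or 4 left 49, 50, 41 and 38 members called (6.77%, 6.71%, 5.33% and 3.91% of all features). Leaving out both CTRL 2 and CTRL 4, the arrays with liver transcripts, left 0 (0% of all features), with the median still at 0.73 and 59 members higher at an unadjusted p under 0.05 (12.8% of all features).

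**Figure D1:**
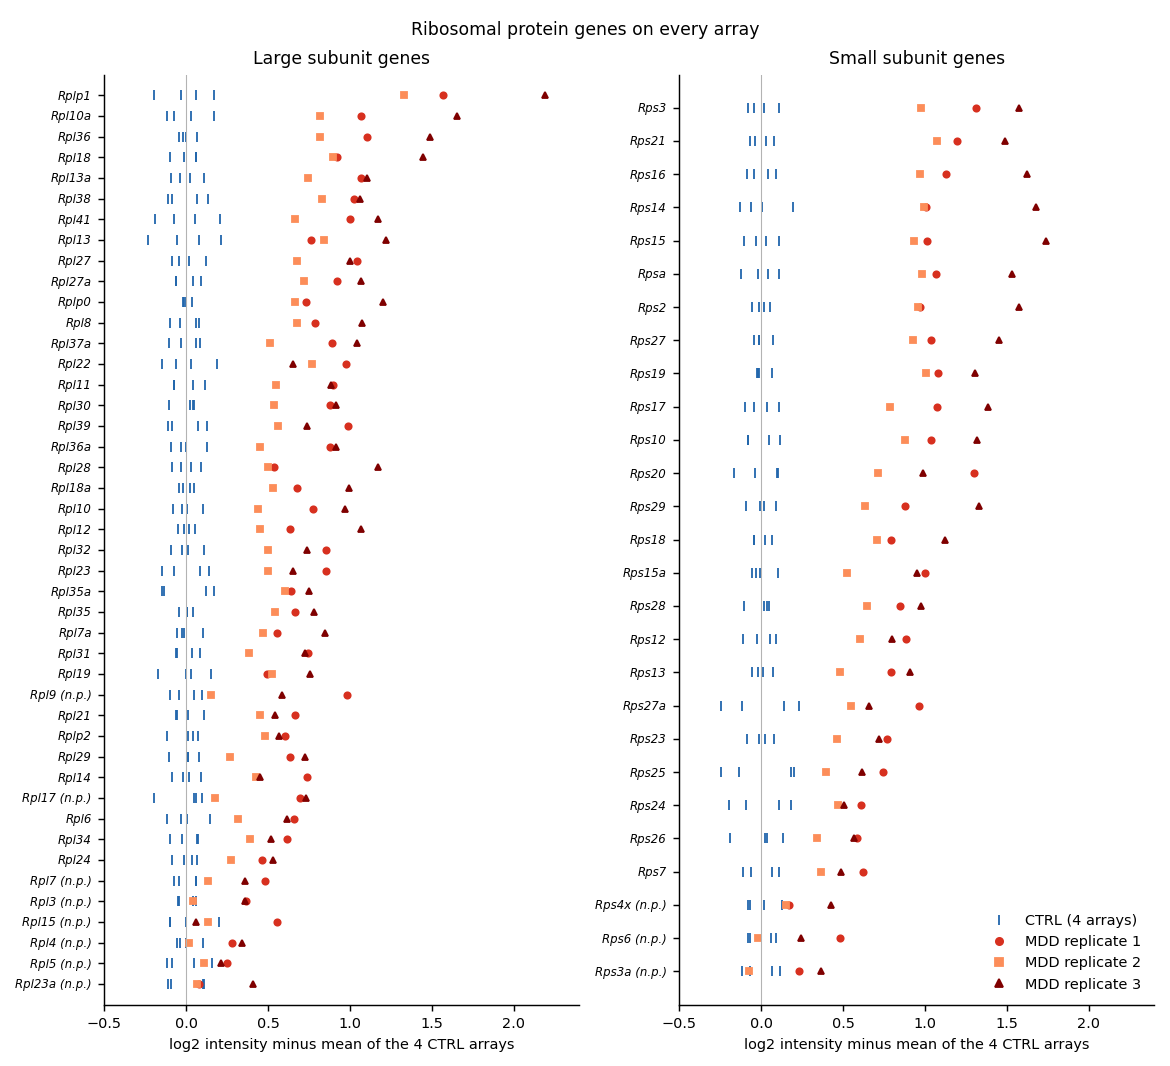
Each row is a ribosomal protein gene (not every one of the 73 is plotted) and each mark an array, plotted as log2 intensity minus the mean of the 4 CTRL arrays; bars are CTRL, the circle, square and triangle are MDD replicates 1, 2 and 3, and n.p. marks genes that did not pass. The MDD marks lie to the right of the CTRL marks without overlap in 66 of the 73 genes measured on the 75th percentile scale, and scaling by spike-ins took the median to -0.01.

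The plot of members by array shows how the MDD arrays lay among themselves on the 75th percentile scale. MDD 2 was the lowest of the 3 in 68 of 73 members and the highest in 0. MDD 3 was the highest in 45 members and MDD 1 in 28. The order depended on the scaling: the member medians of MDD 1, 2 and 3, relative to the CTRL mean, were 0.79, 0.53 and 0.89 on this scale, 0.36, 0.19 and 0.18 with quantile normalization and 0.62, -0.03 and -0.61 with spike-in scaling. Without MDD 2, 64 members were called (14.5% of all features) and the median was 0.85, against 50 without MDD 1 (8.48%) and 54 without MDD 3 (8.69%). Member medians over the 73 genes were 4.50, 4.61, 4.55 and 4.48 on the CTRL arrays and 5.40, 5.03 and 5.56 on the MDD arrays.

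The starts of these genes were read from RefSeq windows on GRCr8, which were found for 59 of the 73 members. A pyrimidine start was counted where a C followed by at least 4 more pyrimidines began within 5 bases of the annotated start, on the sense strand. It was found in 38 of 59 members (64.4%) and in 17.0% of 27457 windows of all genes. The windows below run from 65 bases before to 15 bases after the start. They are shown because they belong to the members with the largest and the smallest differences and to the stalk. Capitals mark only a run that met this count, from its C within 5 bases of the start, and other pyrimidine runs are in small letters.
Rplp1, chr8:71290858-71290937, minus strand: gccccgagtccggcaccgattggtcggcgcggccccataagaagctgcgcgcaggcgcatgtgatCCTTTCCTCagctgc
Rps21, chr3:187723973-187724052, plus strand: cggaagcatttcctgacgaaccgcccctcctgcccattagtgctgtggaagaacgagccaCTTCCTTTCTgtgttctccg
Rps3, chr1:163195762-163195841, minus strand: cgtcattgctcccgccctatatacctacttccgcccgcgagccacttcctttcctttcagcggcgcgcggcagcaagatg
Rplp0, chr12:46718376-46718455, minus strand: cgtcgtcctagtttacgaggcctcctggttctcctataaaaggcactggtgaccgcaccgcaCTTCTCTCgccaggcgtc
Rplp2, chr1:205975856-205975935, plus strand: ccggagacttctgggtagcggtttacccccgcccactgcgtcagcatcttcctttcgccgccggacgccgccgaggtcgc
Rps3a, chr2:173827028-173827107, minus strand: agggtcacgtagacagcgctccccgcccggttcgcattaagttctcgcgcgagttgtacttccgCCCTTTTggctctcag
Rpl5, chr14:1995211-1995290, minus strand: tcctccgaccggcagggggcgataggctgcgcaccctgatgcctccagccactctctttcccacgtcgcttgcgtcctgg
Rpl4, chr8:73566412-73566491, plus strand: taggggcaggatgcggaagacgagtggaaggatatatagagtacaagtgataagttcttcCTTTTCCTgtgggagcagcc
Runs were thus present in Rplp1, Rps21 and Rplp0, which rose, and also in Rps3a and Rpl4, which did not pass. By the same count none was found in the windows of Rps3 and Rplp2, which rose, or of Rpl5, which did not pass. Those windows do hold pyrimidine runs, but the runs begin further before the annotated start than the count allows. The count thus depends on where the start is annotated. Over all 59 members the median difference was 0.72 with and 0.82 without a pyrimidine start by this count.

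Other motifs were searched on both strands of the whole window of 300 bases, with overlaps between motifs allowed. CTTTCC, which can lie inside a pyrimidine start, was present in 29 of 59 members (49.2%) and 26.4% of all windows. Members with CTTTCC had a median difference of 0.94 and those without it 0.60, which was not tested. CCGGAAG, a core of ETS factor sites, was present in 30.5% of members and 9.22% of all windows, AAGATGGC, a core of YY1 sites, in 8.48% and 3.44%, and TATAAA, the TATA box, in 10.2% and 14.3%. A match is a description of letters and not of a bound site.

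The stalk is the flexible arm of the large subunit that recruits elongation factors. The transcripts of its proteins all rose in MDD (4 of 4 called higher). Rplp1, an acidic stalk protein, read 4.35, 4.71, 4.61 and 4.52 on the CTRL arrays and 6.11, 5.88 and 6.74 on the MDD arrays. It had the largest difference of all 73 members, 3.24-fold (log2 1.70, SE 0.21, adjusted p = 0.00977). Its partner Rplp2 read 5.40, 5.59, 5.53 and 5.56 in CTRL and 6.12, 6.0 and 6.09 in MDD, a rise of 1.46-fold (log2 0.55, SE 0.11, adjusted p = 0.0168). Both groups of arrays were tight for Rplp2 and did not overlap. Rplp0, which anchors the acidic proteins to the ribosome, stood at 6.21, 6.21, 6.26 and 6.22 in CTRL and 6.96, 6.88 and 7.43 in MDD, and rose 1.82-fold (log2 0.87, SE 0.15, adjusted p = 0.0113). Rplp1 and Rplp2 were each read by a single probe. A second Rplp0 probe gave a difference of 1.07. With quantile normalization 2 of the 4 stalk genes were called and the difference of Rplp2 was -0.04, and with spike-in scaling 0, where their median was 0.05.

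Of the genes for the proteins that carry 5S ribosomal RNA into the large subunit, Rpl11 passed the test and Rpl5 did not. When the particle these proteins form is not built into ribosomes it binds Mdm2, which controls p53. Rpl11 read 4.51, 4.58, 4.39 and 4.39 in CTRL and 5.36, 5.02 and 5.35 in MDD, a rise of 1.71-fold (log2 0.78, SE 0.13, adjusted p = 0.0111). Rpl5 read 2.95, 3.06, 2.79 and 2.82 in CTRL and 3.15, 3.01 and 3.11 in MDD. The groups overlapped for Rpl5 and its difference of 0.19 (SE 0.12, adjusted p = 0.270) did not pass the test. The call of Rpl11 was lost with quantile normalization (0.26), the authors' deposited table (0.34), spike-in scaling (0.04) and removal of the trend with gene length and signal (0.26). Whether the differences of Rpl11 and Rpl5 themselves differ was not tested.

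Chaperones and the signal recognition particle dock around the exit of the tunnel. Of 7 genes for proteins there, 5 were called higher, with a median difference of 0.62. Rpl17 and Rpl23a did not pass. Rpl17 read 3.17, 3.16, 2.92 and 3.21 in CTRL and 3.8, 3.29 and 3.85 in MDD, and its lowest MDD array, MDD 2, lay just above the highest CTRL array. Its difference was 0.53 (SE 0.17, adjusted p = 0.0533) at its brighter probe, which stood for the gene, and 0.60 (SE 0.16, adjusted p = 0.0329 over all probes) at its other probe, which passed. Rpl23a, the docking site of the signal recognition particle, read 1.49, 1.70, 1.5 and 1.70 in CTRL and 1.68, 1.66 and 2.01 in MDD, where only MDD 3 lay above all CTRL arrays. Its difference was 0.18 (SE 0.14, adjusted p = 0.343). The tunnel exit median fell to 0.08 with quantile normalization and -0.12 with spike-in scaling, with 0 genes called in each.

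The other large subunit genes with the smallest p-values rose by close to 2-fold. Rpl38, which in the mouse is needed for the translation of Hox messenger RNAs, read 5.27, 5.21, 5.05 and 5.03 in CTRL and 6.16, 5.97 and 6.20 in MDD, a rise of 1.96-fold (log2 0.97, SE 0.12, adjusted p = 0.00977). Rpl36 rose 2.19-fold (log2 1.13, SE 0.16, adjusted p = 0.00977) and Rpl18 2.12-fold (log2 1.09, SE 0.16, adjusted p = 0.00977). Rpl13a, which in human myeloid cells can leave the ribosome to silence inflammatory messenger RNAs, rose 1.96-fold (log2 0.97, SE 0.13, adjusted p = 0.00977). Rpl27a, Rpl27 and Rpl8, structural proteins of the large subunit, rose 1.87-fold, 1.87-fold and 1.8-fold with adjusted p of 0.00977, 0.00980 and 0.0106. None of these 7 genes had an MDD array within the CTRL range. They were picked by smallest p, which favours such genes, and over all features 19.9% had every MDD array above every CTRL array.

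In the head of the small subunit, the part that swivels as messenger RNA and transfer RNA move, all 13 measured genes were called higher, with a median difference of 0.997. Rps3 lies at the entry of the messenger RNA channel and also takes part in DNA repair. It read 4.65, 4.74, 4.59 and 4.55 in CTRL and 5.94, 5.61 and 6.20 in MDD, a rise of 2.44-fold (log2 1.29, SE 0.16, adjusted p = 0.00977). Rps19, the gene most often mutated in human Diamond-Blackfan anaemia, read 3.73, 3.82, 3.74 and 3.74 in CTRL and 4.84, 4.76 and 5.06 in MDD, a rise of 2.19-fold (log2 1.13, SE 0.12, adjusted p = 0.00977). Its 4 CTRL arrays lay close together, far below the lowest MDD array. Rps16, whose tail reaches towards the decoding site, read 4.30, 4.47, 4.42 and 4.34 in CTRL and 5.51, 5.35 and 6.01 in MDD and rose 2.36-fold (log2 1.24, SE 0.17, adjusted p = 0.00977). Rps10, which lies near the messenger RNA entry, rose 2.11-fold (log2 1.08, SE 0.14, adjusted p = 0.00977). Rps27a, made as a fusion with ubiquitin, read 4.56, 4.47, 4.22 and 4.09 in CTRL and 5.30, 4.88 and 4.99 in MDD, and rose 1.65-fold (log2 0.72, SE 0.16, adjusted p = 0.0226). CTRL values of Rps27a were more spread than those of the other head genes described here, and still none reached the lowest MDD array. Of the 13 head genes 8 were called with quantile normalization, 10 with the authors' deposited table and 0 with spike-in scaling, where the median of the list was 0.26.

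Outside the head, 11 of 16 small subunit genes were called higher, with a median difference of 0.59. Rps21 read 4.28, 4.39, 4.24 and 4.34 in CTRL and 5.51, 5.39 and 5.80 in MDD, a rise of 2.38-fold (log2 1.25, SE 0.13, adjusted p = 0.00977). Rpsa, known also as the laminin receptor, read 3.23, 3.36, 3.3 and 3.13 in CTRL and 4.32, 4.24 and 4.79 in MDD, and rose 2.29-fold (log2 1.19, SE 0.16, adjusted p = 0.00977). Rps27, a zinc finger protein, rose 2.20-fold (log2 1.14, SE 0.15, adjusted p = 0.00977), and Rps2, which lines the messenger RNA channel, rose 2.24-fold (log2 1.17, SE 0.17, adjusted p = 0.00977). For each of these 4 genes the MDD arrays stood apart from the CTRL arrays. They too were picked by smallest p, and every MDD array lay above every CTRL array in 19.9% of all features. Of these 16 genes 5 were called with quantile normalization, and with spike-in scaling 0 were and the median was -0.15. The remaining 38 members, 23 of the large and 15 of the small subunit, were all called higher, by 1.34-fold to 2.34-fold, with adjusted p between 0.00977 and 0.0390.

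The 13 members that did not pass had positive differences of 0.17 to 0.57. In 6 of them, among them Rpl17, Rpl9, Rpl7 and Rps4x, every MDD array lay above every CTRL array (19.9% of all features). In the other 7 the groups overlapped. The gap between the lowest MDD and the highest CTRL array was small in these 4 named genes, from 0.025 at Rps4x to 0.078 at Rpl17. Rps3a, a small subunit protein that also binds initiation factors, had the smallest difference of all members. It read 4.93, 4.88, 4.70 and 4.75 in CTRL and 5.05, 4.74 and 5.18 in MDD, where MDD 2 lay within the CTRL range, and the difference was 0.17 (SE 0.14, adjusted p = 0.393). Rps6, the substrate of the S6 kinases downstream of mTORC1, read 3.81, 3.84, 3.68 and 3.67 in CTRL and 4.23, 3.73 and 4.00 in MDD. MDD 2 again lay within the CTRL range of Rps6, and its difference was 0.23 (SE 0.14, adjusted p = 0.257). Rpl4 and Rpl3, large proteins with extensions deep in the large subunit, had differences of 0.21 (SE 0.12, adjusted p = 0.234) and 0.26 (SE 0.13, adjusted p = 0.165). Rps4x, the X-linked copy of a small subunit gene, had a difference of 0.25 (SE 0.12, adjusted p = 0.172). For Rpl15 the difference was 0.25 (SE 0.16, adjusted p = 0.267), with MDD 1 alone above all CTRL arrays. Rpl7 differed by 0.32 (SE 0.12, adjusted p = 0.0943). Rpl9 read 4.63, 4.68, 4.48 and 4.53 in CTRL and 5.56, 4.73 and 5.17 in MDD. The spread of the MDD arrays of Rpl9 was among the widest here, and its difference of 0.57 (SE 0.19, adjusted p = 0.0627) did not pass. With quantile normalization Rpl3, Rpl4, Rpl5, Rpl7, Rps3a and Rps6 had a lower mean in MDD than in CTRL.

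Comparing the subunits, 36 of 44 large subunit genes and 24 of 29 small subunit genes were called higher. The median difference was 0.71 for the large and 0.82 for the small subunit. Differences of 2-fold or more were seen in 4 large and 11 small subunit genes. The median of the large subunit genes minus that of the small subunit genes was 0.31, 0.23, 0.39 and 0.23 on the CTRL arrays and 0.22, 0.13 and 0.22 on the MDD arrays, so the lowest CTRL array lay barely above the highest MDD array. No test was made of this difference over members, which were not independent of each other. The medians were 0.19 and 0.37 with quantile normalization, 0.26 and 0.39 in the authors' deposited table and 0.17 and 0.33 after removal of the trend with gene length and signal, given for the large and then the small subunit. Without CTRL 3, 22 large subunit genes were called, and without CTRL 4, 20.

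**Figure D2:**
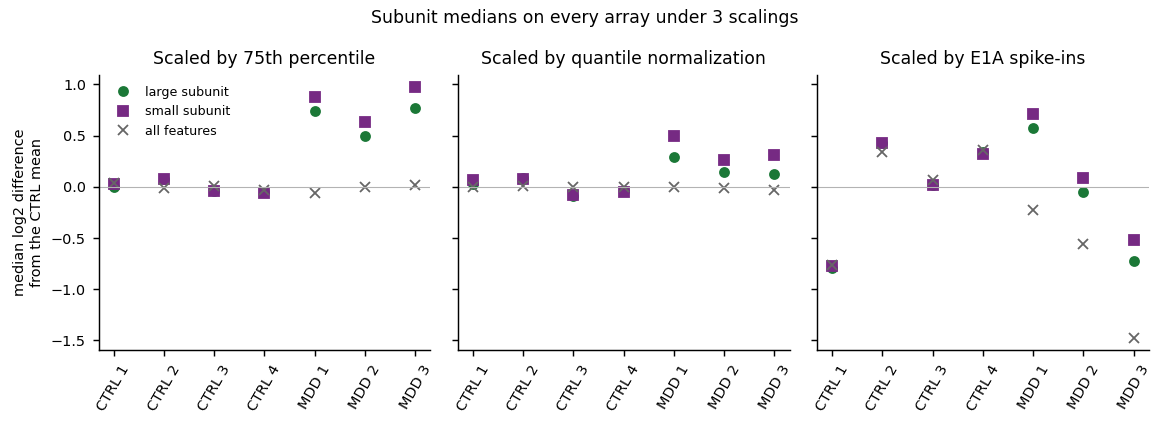
Median log2 difference from the CTRL mean over the 44 large subunit genes (circles), the 29 small subunit genes (squares) and all features (crosses) on each array, with arrays scaled by the 75th percentile, by quantile normalization or by the E1A spike-ins. The members lie above all features on all 3 MDD arrays in each panel. Their gap to all features is the same by construction with the 75th percentile and with spike-ins. Their height against the CTRL arrays shrinks with quantile normalization and is lost with spike-ins (member median -0.01, all features -0.77).

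As the plot of subunit medians shows, the spike-in scaling moved all features together. The spike-ins are Agilent's E1A RNAs, added in fixed amounts before labelling. Of the 10 E1A probes, the 6 with a log2 intensity above 4 on every array were used. Of the 10, 5 were well above background on every array except MDD 3, where 6 were. With this scaling the median difference of all features was -0.77 and that of the members -0.01. The members thus stood 0.76 above the median of all features, the same gap as with the 75th percentile. Each of these scalings subtracts 1 value per array, so the gap could not change between them. On this scale 0 members were called (0.005% of all features), 1 was higher at an unadjusted p under 0.05 (0.055% of all features), 35 had a higher and 38 a lower MDD mean. The all-feature median under this scaling ranged from -0.76 to 0.36 over the CTRL arrays and from -1.47 to -0.23 over the MDD arrays, so the control arrays alone differed from each other by more than the member median of 0.73.

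The upper end of the intensity distribution was higher in MDD apart from these genes. With all member probes taken out, the 99th percentile of probes lay at 4.76 to 4.85 on the CTRL arrays and at 5.21, 5.11 and 5.57 on the MDD arrays. At the 95th percentile the values were 2.92 to 2.95 in CTRL and 3.21, 3.14 and 3.33 in MDD. The members sit in that range: 69 of 73 fell in the brightest 10% of features. Among the other features of that range, 38.5% were called higher and the median difference was 0.43, against 59 of 69 members and a median of 0.75. Among the 254 other genes that were both in the brightest 10% and in the shortest 20% by gene length, 50.4% were called higher with a median of 0.49, against 54 of 62 members and a median of 0.75. After the trend with gene length and signal was removed from each array, 19 members were called higher (6.69% of the 11965 named genes in that fit), with a median of 0.24. Its part in the result beyond these values was not tested.

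**Figure D3:**
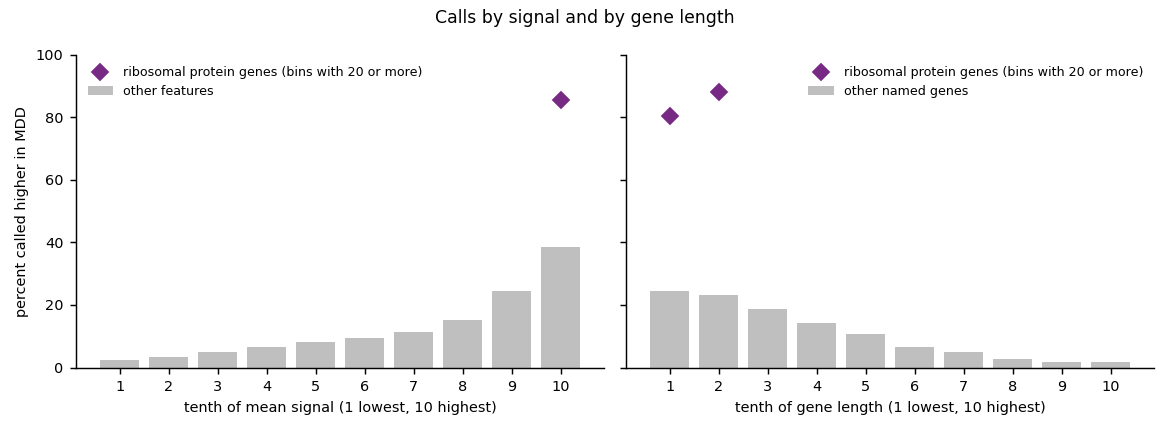
Percent of features called higher in MDD in 10 equal bins of mean signal (left) and of gene length (right), with bars for features other than the members and diamonds for ribosomal protein genes in bins with 20 or more of them. Bars climb with signal to 38.5% and fall with gene length, and the diamonds lie above the bars in each bin that has one, on the 75th percentile scale; with spike-in scaling 0 members were called.

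Within the members, the difference was only loosely related to these properties. Spearman's rho across the 73 members, which share the same arrays and are not independent replicates, was -0.25 with gene length and 0.20 with mean signal.

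Different probes of the same gene gave close values. Of the 44 genes with more than 1 probe, 38 had differences that spanned less than 0.2, with a median span of 0.08, and 128 of the 130 probes had a higher MDD mean. Rpl28 and Rpl36a were the exceptions in sign. For Rpl28 the brightest probe rose by 0.73 (SE 0.18, adjusted p = 0.0266) and another gave 0.68, while its dimmest probe gave -0.03. For Rpl36a 3 probes gave 0.70 to 0.76 and a dim one -0.11, with the brightest called (SE 0.15, adjusted p = 0.0155). Rps16 had 1.24 at its brightest probe and 0.64 at a dimmer one, and the 3 probes of Rps19 gave 1.13, 0.86 and 0.80. Ribosomal protein genes have many processed pseudogene copies, and whether a probe also reads such copies was not tested.

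**Figure D4:**
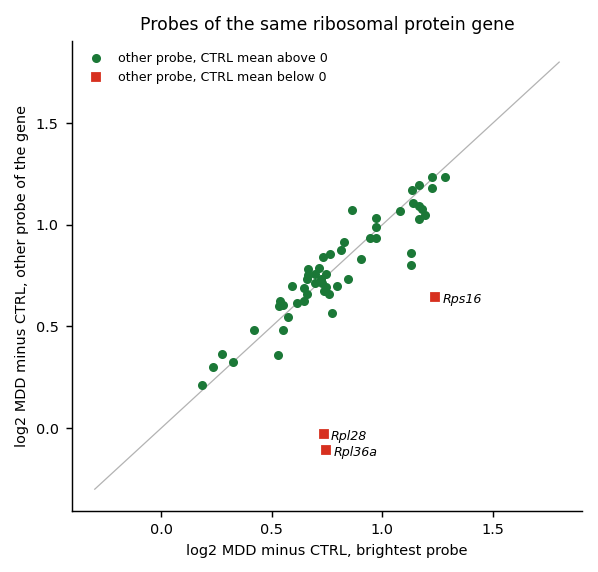
Difference between MDD and CTRL (log2, 75th percentile scale) at the brightest probe of a gene against that at each other probe of the same gene, for the 44 genes with several probes; squares are dim probes with a CTRL mean below 0, and the line marks equality. Most points lie along the line, and the labelled dim probes of Rpl28, Rpl36a and Rps16 lie below it; spike-in scaling took the median over members to -0.01.

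Position on the slide overlapped with the groups. All arrays shared 1 slide and 1 scan, with CTRL 1, 2 and 3 in row 1 and CTRL 4 with the 3 MDD arrays in row 2. CTRL 4 lay within the range of the other controls in 39 of 73 members, below them in 30 and above them in 4, and below every MDD array in 71. The median of the MDD mean minus CTRL 4 was 0.79. With the row as a term in the fit 0 members were called (0% of all features, smallest adjusted p 0.140), although 60 were higher at an unadjusted p under 0.05 (13% of all features). Within row 2 alone 0 were called (0.005% of all features, smallest adjusted p 0.412), in a comparison that rests on 1 control array with no spread of its own.

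Transcripts of ribosomal proteins outside the symbol rule moved in the same direction where they passed (3 of 5 higher, 0 lower). Fau, made as a fusion with a ubiquitin-like protein, rose 1.98-fold (log2 0.98, SE 0.19, adjusted p = 0.0146). Rack1, a signalling scaffold on the small subunit head, rose 2.07-fold (log2 1.05, SE 0.20, adjusted p = 0.0148). Rpl22l1, a paralog of Rpl22, had a difference of 0.05 (SE 0.14, adjusted p = 0.799), and Rps4y2 one of 0.36 (SE 0.12, adjusted p = 0.0671).

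Mitochondrial ribosomal proteins build the separate ribosome of mitochondria. Of their 67 genes 25 were called higher (37.3%, against 12.6% of all features) and 0 lower, with a median of 0.34. Mrpl20 rose 1.89-fold, Mrps16 1.88-fold, Mrpl34 1.79-fold and Mrps24 1.94-fold, with an adjusted p of 0.00977 for Mrpl20 and 0.0104 for Mrps24.

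Among genes that make or regulate ribosomes, medians lay near that of all features or little above it. Translation genes whose messenger RNAs also carry the TOP motif had a median of 0.16. Of 15 such genes 3 were called higher (20%, against 12.6% of all features) and 0 lower. These were the elongation factor genes Eef1g, Eef1d and Eef2, which rose 1.58-fold, 1.47-fold and 1.52-fold with adjusted p of 0.0112, 0.0144 and 0.0260. Probes of this list were bright, with list medians of 2.67 to 3.32 per array against a 90th percentile of all probes of 1.84 to 2.06. In the brightest 10% of features, 38.5% of those other than the members were called higher. Of the 15 genes 0 were called higher and 3 lower with quantile normalization, and 0 and 2 in the authors' deposited table. Of 72 ribosome biogenesis genes 8 were called higher (11.1%, against 12.6% of all features) and 6 lower, shares near those of all features, with a median of 0.01. Nop10, a protein of the particles that modify ribosomal RNA, rose 1.81-fold (log2 0.86, SE 0.13, adjusted p = 0.0104), and Fbl, the methyltransferase that acts on ribosomal RNA, rose 1.49-fold (log2 0.58, SE 0.11, adjusted p = 0.0128). Nmd3, an export adaptor of the large subunit, fell by 0.82 on the log2 scale (SE 0.19, adjusted p = 0.0247), and Rpf1, a large subunit assembly factor, fell by 0.57 (SE 0.13, adjusted p = 0.0208). Of 13 genes of RNA polymerase I and its factors 2 were called higher (15.4%, near the 12.6% of all features). These were Polr1c and Polr1h, with differences of 0.76 and 0.79.

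In the list of mTORC1 and its partners, 6 of 27 genes were called higher (22.2%, against 12.6% of all features) and 1 lower. The median was -0.02. The list holds members of the Ragulator complex, which keeps mTORC1 at lysosomes, and of these Lamtor2, Lamtor5 and Lamtor4 rose 1.76-fold, 1.78-fold and 2.12-fold, while Lamtor1 and Lamtor3 did not pass, with differences of 0.53 (adjusted p = 0.116) and -0.02 (adjusted p = 0.918). Castor1, an arginine sensor that restrains mTORC1, rose 1.70-fold (log2 0.77, SE 0.16, adjusted p = 0.0189). Rps6kb1, the S6 kinase gene, fell by 0.49 on the log2 scale (SE 0.14, adjusted p = 0.0391). Of 16 genes often used as references, 2 were called higher (12.5%, near the 12.6% of all features) and 1 lower. Their median was 0.16. With spike-in scaling 0 genes of the mTORC1, reference, polymerase, biogenesis, TOP translation, mitochondrial or other ribosomal lists were called higher.

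**Figure D5:**
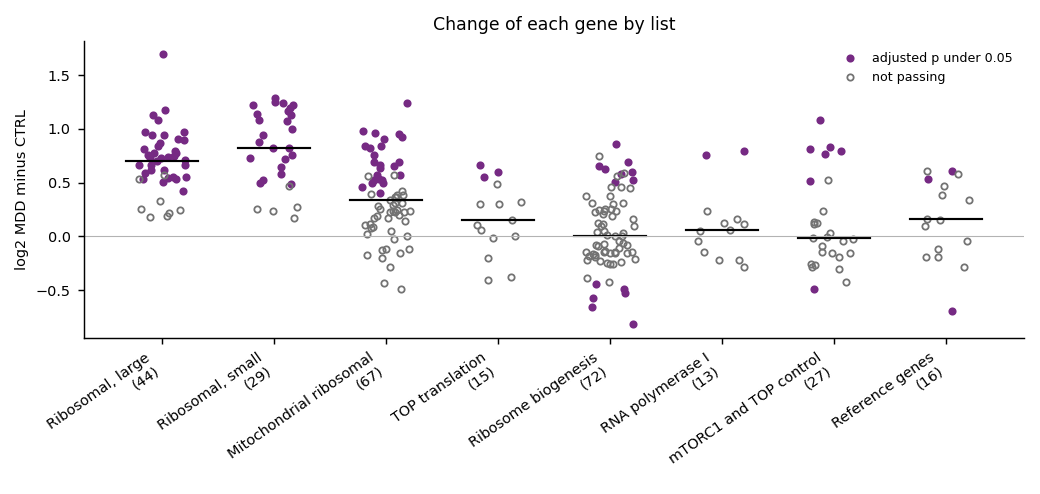
Difference between MDD and CTRL (log2, 75th percentile scale) of each gene in the 2 ribosomal subunits and 6 further lists, with the number of genes below each name, filled points for genes that passed the test and a bar at the median. Medians run from 0.82 for the small subunit to -0.02 for the mTORC1 list; spike-in scaling lowered the median of all features to -0.77 and left 0 of these genes called higher.

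Some cell type markers differed between the groups. Of 9 microglia and macrophage markers 6 were called higher and 1 lower, and their summed level ran from 3.19 to 3.29 on the CTRL arrays and from 3.70 to 4.17 on the MDD arrays. Quantile normalization and the authors' deposited table gave the same counts, and with spike-in scaling 0 were higher and 1 lower. Trem2 and Tyrobp rose while Cx3cr1 fell by 0.90 on the log2 scale (adjusted p = 0.0111). Of 11 granule neuron markers 0 were called higher and 3 lower, with summed levels of 6.38 to 6.53 in CTRL and 6.23 to 6.40 in MDD. Of 10 genes in the Purkinje cell list 2 were higher and 4 lower. Those called include Pvalb (higher) and Gad1 and Gad2 (lower), which are not particular to Purkinje cells. Among astrocyte markers 1 of 7 was higher, among oligodendrocyte markers 1 of 7 was lower, and among endothelial and mural cell markers 1 of 7 was higher. A count of 1 in 7 is 14.3%, against 12.6% of all features called higher and 7.96% called lower. These lists therefore did not stand out. No choroid plexus (6), meninges (6), blood (4) or liver (3) marker passed, but without MDD 2 the markers called higher were 4 of choroid plexus, 1 of meninges and 1 of blood. The choroid plexus median of 0.32 was 0.83 without MDD 2 and 0.02 without MDD 3. Ttr, the transthyretin gene, read 7.65, 6.82 and 8.08 on MDD 1, 2 and 3, and Hbb, a haemoglobin gene, 6.18, 5.49 and 7.13, with MDD 2 lowest and MDD 3 highest as in the member medians on this scale. Not every gene of these lists had a higher MDD mean: 5 choroid plexus markers did and 1 did not, and 3 blood markers did and 1 did not. The exceptions were Kl of choroid plexus, with a difference of -0.49, and Slc4a1 of blood, with -0.41. No marker of the microglial and granule lists was below detection on any array, and the part of these markers in the ribosomal result was not tested.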

How the data were processed

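RNA of 7 cerebella was labelled with Cy3 and read on 1-colour Agilent arrays. Per the file headers, the deposited processed and raw median intensities were made with Feature Extraction 10.7.3.1 on a grid of the build rn4, with processed signals background-subtracted and detrended within each array; the flag columns hold a score of 0 or 1, per the file headers. The authors' deposited table holds normalized intensities made by a method that the sources used here do not give. Its probe means over the 7 arrays correlated at 0.99997 with those of the raw median signal, which does not compare single arrays. The column medians of the table lay between 311.2 and 318.8. Column names show the group only, so no column was tied to an array.

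Main values were log2 processed signal minus the 75th percentile of the array, with control and outlier spots left out and the spots of a probe averaged. Probes were kept if well above background (at least 50% of spots) on at least 3 of 7 arrays. Accessions were matched without version to the RefSeq table of GRCr8, which named 18355 of 30367 probes, and the kept probe with the highest mean stood for a gene. Groups came from the titles. The test was limma's (version 3.58.1, R 4.3.3, two-sided lmFit and eBayes, 5 residual degrees of freedom) with Benjamini-Hochberg adjustment over 19988 features and a threshold of 0.05. The code was tested on simulated arrays.

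The members, lists, tests and alternatives were chosen with earlier results of these data known. Given in full are the 8 members with the smallest p of each subunit, the 13 that did not pass, those whose probes differ in sign, and Rplp0, Rplp1, Rplp2, Rpsa, Rps27a, Rps6, Rpl5 and Rpl11; a further part of the rule, by level, was not used because levels of different probes cannot be compared. Some genes that the rule covers are not reported here by name. From other lists at most 4 genes in each direction, by smallest p, were eligible. Alternatives were 3 other scalings, normexp (offset 50, on median in place of mean signals), the authors' table, 2 filters, the mean of probes, slide row, replicate block, removal of the trend with gene length and signal (splines with 5 degrees of freedom), and leaving out arrays.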

Additional observations from a re-analysis of the deposited data

Results flagged for a closer look

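Among the 4 CTRL arrays, Rps19 stood out: CTRL 2 read 3.82 while the other controls lay between 3.73 and 3.74, so its gap took a share of 0.885 of the whole range (above Dixon's critical value for 4 samples). Of 78 values tested this way (the 73 members and 5 summaries over them) 1 was picked out, and chance picks out about 1 in 20. CTRL 2 is also an array on which liver transcripts stood high, and its Rps19 value still lay below every MDD array.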

How the results depend on the processing

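The direction and the call of the members depended on the scaling between arrays. The members called higher, 60 in the main setting, numbered 19 with quantile normalization (6 large and 13 small subunit genes, 10.5% of all features), 28 with the authors' deposited table (13 and 15, 12% of all features) and 0 with spike-in scaling (0.005% of all features). They numbered 19 after removal of the trend with gene length and signal (8 and 11, 6.69% of the named genes fitted). The median difference of 0.73 became 0.25, 0.30, -0.0055 and 0.24 in these 4 settings. Relative to the median of all features it was 0.27, 0.31, 0.76 and 0.25, and the cause was not tested. Spike-in scaling moves all features of an array alike and cannot change the value relative to that median. With the slide row as a term 0 members were called (smallest adjusted p 0.140), within row 2 alone 0 (0.412) and without CTRL 2 and CTRL 4, a setting chosen after seeing the data, 0 (0.120), while the medians were 0.79, 0.79 and 0.73. With the row as a term and without CTRL 2 and CTRL 4, 60 and 59 members were higher at an unadjusted p under 0.05 (13% and 12.8% of all features). These settings hold fewer samples or fewer residual degrees of freedom. Counts stayed within 1.5 times the main one with median scaling (62, 14.8% of all features), normexp (61, 11.4%), no filter (47, 4.34%), a filter on all arrays (63, 15.2%) and the mean of probes (59, 12.7%).

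Same-numbered arrays correlated in their deviations at 0.09, -0.18 and 0.22, and differently numbered ones at -0.225 to 0.154. With so few arrays these values cannot show whether replicate numbers pair the pups. With the replicate block, which leaves out CTRL 4, 0 members were called (0% of all features, smallest adjusted p 0.0631), 62 were higher at an unadjusted p under 0.05 (17.4% of all features) and the median was 0.72. Leaving out 1 array at a time gave 38 (without CTRL 4) to 64 (without MDD 2) members called, 20 to 39 large and 18 to 25 small subunit genes, and medians of 0.68 to 0.85. The large minus small difference of medians, -0.12, was -0.19 to -0.11 over all alternatives, several of which move all genes alike and cannot change it, and -0.15 to -0.11 over the arrays left out.

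Over 33 named members and 20 alternatives, 478 of 660 values kept direction and side of the threshold, 139 kept direction and lost the call, 7 gained it and 36 turned in sign. With quantile normalization the turned differences were -0.30 for Rpl3, -0.26 for Rpl4, -0.094 for Rpl5, -0.16 for Rpl7, -0.038 for Rplp2, -0.36 for Rps3a and -0.20 for Rps6. With spike-in scaling they were -0.49 for Rpl15, -0.21 for Rpl17, -0.55 for Rpl23a, -0.0026 for Rpl28, -0.48 for Rpl3, -0.52 for Rpl4, -0.55 for Rpl5, -0.41 for Rpl7, -0.16 for Rpl9, -0.19 for Rplp2, -0.016 for Rps27a, -0.56 for Rps3a, -0.49 for Rps4x and -0.50 for Rps6. With the authors' deposited table they were -0.22 for Rpl3, -0.26 for Rpl4, -0.017 for Rpl5, -0.13 for Rpl7, -0.31 for Rps3a and -0.18 for Rps6. After removal of the trend they were -0.16 for Rpl23a, -0.10 for Rpl3, -0.26 for Rpl4, -0.18 for Rpl5, -0.18 for Rpl7, -0.032 for Rplp2, -0.34 for Rps3a, -0.11 for Rps4x and -0.23 for Rps6. Of the other lists, genes called higher ranged over the alternatives from 0 to 28 for mitochondrial ribosomal proteins (main 25), 0 to 12 for biogenesis (8), 0 to 6 for mTORC1 (6), 0 to 4 for TOP translation (3) and for references (2), 0 to 2 for polymerase I (2) and 0 to 4 for the other ribosomal proteins (3). Genes called lower ranged from 0 to 7 for biogenesis (6), 0 to 4 for references (1), 0 to 3 for TOP translation (0) and 0 to 2 for mTORC1 (1) and mitochondrial ribosomal proteins (0).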
